A study of Homo sapiens with 20 samples.

Results

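Messenger RNA of MDA-MB-231 cells, an established human breast cancer line with mesenchymal features, was compared between all cells that had been heated with a laser and all cells that had not. The comparison took in 20 of the 20 samples of the series, chosen by their labels alone: 12 heated samples, 4 each at laser temperatures of 46, 50 and 54 °C, and 8 unheated samples, 4 of untreated cells and 4 of cells given nanoparticles without laser light. The 5 groups were weighted equally, so that the mean of the 3 heated groups was set against the mean of the 2 unheated ones. In all groups a well took 30000 cells and stood at 37 °C for 24 h, and each sample joins 2 wells. The heated cells and the nanoparticles-only cells had stood for 4 h in 200 µl of medium with 0.1 mg/ml of biomimetic nanoparticles. Each heated well was then lit for 10 min with a continuous-wave laser of 808 nm while its temperature was held. Heat and light cannot be told apart, because cells with light and no particles were not analysed here. Only 4 of the 8 unheated samples carried the particles. No source used here states how long after heating the cells were lysed. Whether replicates were separate cultures is not in the labels, so the spread behind each p-value may be technical.

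Heat unfolds proteins, and cells answer within minutes to hours with chaperone genes driven by the factor HSF1, with immediate-early transcription factors, and with changes in RNA processing in the nucleus. NEAT1 is the long noncoding RNA around which paraspeckles form, and MALAT1 is a long noncoding RNA of nuclear speckles; both are known to respond to cell stress. Injured epithelial and tumour cells also make signals such as the alarmin interleukin 1 alpha and the neutrophil attractant interleukin 8, encoded by CXCL8.

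The libraries were primed on poly(A) and read the 3′ ends of RNAs, and several of the RNAs counted higher in every heated group come from, or have exons that contain, small structured RNAs. A few of them are shown because they belong to the largest increases described below. RMRP is the RNA of the RNase MRP complex, SNORD3D is a copy of the U3 small nucleolar RNA and lies in an exon of AC007952.4, and RN7SKP187 is a pseudogene of the 7SK RNA and lies in an exon of ZNF277. RNase MRP RNA and U3 RNA are not known as RNAs with a poly(A) tail. The sequences are from GENCODE v29 on GRCh38, at 9:35657751-35658018 on the minus strand, 17:19112419-19112636 on the minus strand and 7:112288623-112288922 on the plus strand, the last being the first 300 bases of RN7SKP187. Capitals mark the longest runs of A, which have 3 letters in RMRP and RN7SKP187 and 4 in SNORD3D.
RMRP: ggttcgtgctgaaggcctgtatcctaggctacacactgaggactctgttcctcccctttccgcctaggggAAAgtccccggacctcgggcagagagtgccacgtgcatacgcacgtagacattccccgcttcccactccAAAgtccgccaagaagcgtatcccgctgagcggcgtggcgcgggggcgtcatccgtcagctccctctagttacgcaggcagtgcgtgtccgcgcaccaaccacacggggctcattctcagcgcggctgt
SNORD3D: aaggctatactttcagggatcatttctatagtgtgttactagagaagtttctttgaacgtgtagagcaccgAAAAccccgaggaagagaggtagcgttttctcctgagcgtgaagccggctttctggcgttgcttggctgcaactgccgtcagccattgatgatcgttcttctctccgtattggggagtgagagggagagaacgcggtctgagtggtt
RN7SKP187: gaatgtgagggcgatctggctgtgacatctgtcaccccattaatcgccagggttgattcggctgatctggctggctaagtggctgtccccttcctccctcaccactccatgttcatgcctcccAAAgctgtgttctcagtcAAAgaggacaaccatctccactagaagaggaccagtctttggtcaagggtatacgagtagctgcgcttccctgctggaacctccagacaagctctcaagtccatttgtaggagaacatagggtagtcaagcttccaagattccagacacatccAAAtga

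A pair of promoters is shown because their genes, CXCL8 and IL1A, were the only members of the list of NF-kB targets and cytokines that were higher at each temperature. Both are given from 250 bases before to 50 bases after the gene start, from RefSeq on GRCh38.p14, at 4:73740319-73740618 on the plus strand and 2:112784444-112784743 on the minus strand. Capitals mark matches on either strand to the AP-1 letters TGANTCA and to the kB letters GGAATTTCC; the 2 motifs did not overlap in either promoter.
CXCL8: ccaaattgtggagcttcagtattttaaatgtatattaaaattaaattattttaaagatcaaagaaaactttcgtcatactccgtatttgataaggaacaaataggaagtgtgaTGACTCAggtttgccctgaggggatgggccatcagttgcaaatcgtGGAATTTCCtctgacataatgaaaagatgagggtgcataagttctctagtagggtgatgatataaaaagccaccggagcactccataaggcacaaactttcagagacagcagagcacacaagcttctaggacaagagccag
IL1A: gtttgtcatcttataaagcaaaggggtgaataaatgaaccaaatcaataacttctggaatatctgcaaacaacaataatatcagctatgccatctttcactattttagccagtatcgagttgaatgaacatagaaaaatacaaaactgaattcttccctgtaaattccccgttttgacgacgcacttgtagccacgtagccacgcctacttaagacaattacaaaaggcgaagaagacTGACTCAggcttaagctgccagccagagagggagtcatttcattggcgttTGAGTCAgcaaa
The CXCL8 promoter held 1 AP-1 match and 1 kB match, and the IL1A promoter 2 AP-1 matches. AP-1 letters stood in 4.59% of the 9430 promoters found for tested genes and in 4 of the 14 found for RNAs higher at each temperature, those of ANKRD1, CXCL8, F3 and IL1A. The kB letters stood in 0.424% of all promoters. Heat shock element letters were searched too. The 2-unit form GAANNTTC stood in 4.67% of all promoters and in 1 of those 14, that of ANKRD1. A 3-unit form stood in 0.308% of all promoters and in 0 of the 14 for RNAs higher at each temperature. A promoter was found for 60.9% of these RNAs and for 77.6% of tested genes, under the 80% asked for, so the comparison of shares is void and the matches are descriptions.

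Of 12149 genes tested, 235 were higher and 275 lower in heated than in unheated cells, which is 1.93% and 2.26% of tested genes (edgeR's quasi-likelihood test with Benjamini-Hochberg adjustment, called at an adjusted p under 0.05, here and for every adjusted p that follows). Scaling by library totals in place of TMM gave 173 higher and 347 lower, so that higher genes were 33.3% of the calls and not 46.1%. At least 2-fold differences made up 50 of the higher and 25 of the lower genes. Against the same 8 unheated samples, cells at 46 °C had 195 higher and 133 lower genes (1.61% and 1.09%), cells at 50 °C 292 and 318 (2.4% and 2.62%), and cells at 54 °C 57 and 31 (0.469% and 0.255%). Only 23 genes were higher at each of the 3 temperatures and 11 lower, 0.189% and 0.0905% of tested genes, and these 34 genes are called shared here. They made up 9.787% of the genes higher in the pooled comparison and 4% of the lower ones. The 3 temperature comparisons share their unheated samples, so they are not independent of each other. Exons of 9 shared genes, among them MALAT1, FOXN3, FOXP1 and DDIT4, overlap those of a gene on the other strand, and without a stated strand setting such reads cannot be told apart. The shared counts rest in part on single samples: without nanoparticles-only replicate 4 there were 15 shared higher genes, and without 54 °C replicate 1 or 54 °C replicate 3 there were 7 or 6 shared lower genes. Nanoparticles alone against untreated cells gave 0 higher and 0 lower genes in edgeR, with a smallest adjusted p of 0.62. An unadjusted p under 0.05 was found for 637 genes, where a share of 0.05 of the 12149 genes would pass by chance.

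Library totals ran from 2401180 to 7710977 counts in heated and from 2428489 to 4952111 in unheated samples, with the highest group mean, 6769582, at 54 °C and the lowest, 2872173, at 46 °C. Mitochondrially encoded RNAs took 4.945% ± 0.524 of counts at 46 °C (SD, n = 4), 17.01% ± 1.95 at 50 °C, 13.85% ± 0.882 at 54 °C, 11.12% ± 1.65 in untreated cells and 11.98% ± 0.629 with nanoparticles only; the part of this shift in the results below was not tested. Replicates 3 and 4 differed from replicates 1 and 2 in 507 higher and 565 lower genes (4.17% and 4.65%), and the labels name no batch. Replicates 1 and 2 alone gave 218 higher and 186 lower genes for heating, and replicates 3 and 4 alone 62 and 44. Of the 34 shared genes, 34 kept their direction within both replicate pairs, 32 were called for pooled heating within replicates 1 and 2, 27 within replicates 3 and 4, and 25 within both; these samples had also chosen the genes. The effect of heating differed between the replicate pairs for 2 genes (0.0165%), NAMPT and MT-ND6, neither of them shared. NAMPT, an enzyme of NAD synthesis, was named after its values were seen. Markers fixed for the line, such as VIM, summed to between 4858 and 6092 CPM in every sample, while 6 lymphocyte markers summed to at most 0.993 CPM and 6 blood cell markers to at most 3.74 CPM. Of the 9 line markers tested 2 were higher with heating, beside 1.93% of all tested genes, and VIM was one (0.235 ± 0.05, adjusted p = 0.00132). The 10 luminal breast markers summed to between 378.2 and 625.6 CPM, and 1 of the 6 tested was higher. Of the 8 macrophage markers 2 and of the 6 fibroblast markers 2 were abundant enough to test, and 0 were called when pooled, beside 4.2% of all tested genes. In RNA from whole wells, fewer cells with an RNA and less of it per cell cannot be told apart.

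**Figure D1:**
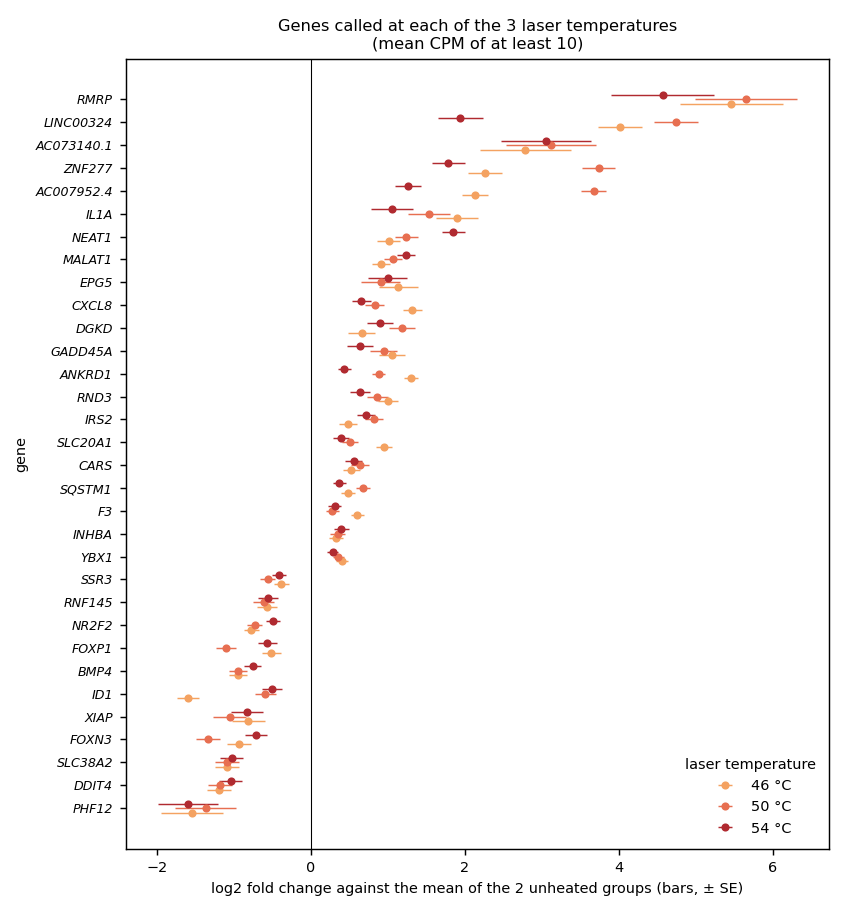
Log2 fold change of each laser temperature against the mean of both unheated groups (x axis, points with bars of ± SE) for the 32 shared genes whose mean CPM reached 10 (y axis, ordered by the pooled value). The points of one gene lie on the same side of 0 by the choice of the genes, and the temperatures spread widest for LINC00324 and AC007952.4, where 54 °C is lowest and 50 °C highest.

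The noncoding RNAs held the largest shared increases. RMRP was at 13.7, 54.1 and 87.3 CPM (lowest, median and highest of 12 heated samples) and at 0, 0 and 5.29 CPM in the 8 unheated ones. No heated sample overlapped the unheated range, and the samples at 54 °C were the lower ones apart from replicate 3. The pooled log2 fold change was 5.23 ± 0.60 (SE; adjusted p = 8.32e-05), with 5.46 at 46 °C, 5.66 at 50 °C and 4.57 at 54 °C. With most unheated samples at 0, this fold depends on the prior count of the fit. AC007952.4, the long noncoding gene whose exon holds the U3 copy (17:19112000-19112636, minus strand, GENCODE v29), was at 58.6, 117 and 400.2 CPM with heating and at 17.03, 26.1 and 41.7 CPM without. All 12 heated samples lay above the unheated range, with the highest values at 50 °C. Its log2 fold change was 2.36 ± 0.14 (adjusted p = 2.78e-15).

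ZNF277, a zinc finger gene (7:112206588-112343096, plus strand), was at 23.1, 41.3 and 136 CPM in heated and at 3.01, 9.40 and 12.8 CPM in unheated samples. The ranges did not overlap, and again the 4 samples at 50 °C were the highest, between 100.8 and 136 CPM. Its log2 fold change was 2.60 ± 0.18 (adjusted p = 7.63e-20). The deposited counts are per gene and do not say whether the reads fell on the 7SK-like exon printed above or on the exons that code for protein. Of the 21 annotated shared higher genes 5 (23.81%) held an entry annotated as a small structured RNA in an exon: RMRP (a second entry of the same RNA), ZNF277, AC007952.4, NEAT1 and MALAT1. So did 14 of the annotated pooled higher genes (6.034%), against 1.007% of annotated tested genes and 1 of the pooled lower genes (0.365%). The entries in NEAT1 (RF01955, RF01956 and RF01957) and MALAT1 (RF01871 and RF01684) have no gene name. Whether they are RNAs apart from the gene that holds them was not tested, so these shares may count a gene's own annotation.

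LINC00324, a long intergenic noncoding RNA of unsettled function (17:8220642-8224043, minus strand), was at 22.96, 160.5 and 336.1 CPM with heating and at 3.10, 9.17 and 16.2 CPM without. Heated samples fell into an order by group that was not the order of temperature: 129.8 to 182 CPM at 46 °C, 219.2 to 336.1 CPM at 50 °C and 22.96 to 49.2 CPM at 54 °C, the lowest of them still above every unheated sample. The log2 fold change was 3.57 ± 0.25 (adjusted p = 1.21e-07), and the temperatures differed (adjusted p = 0.000183, F-test over the 3 heated groups).

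NEAT1 (11:65422774-65445540, plus strand) was at 79.5, 103 and 214.5 CPM in heated and at 34.9, 45.3 and 62.9 CPM in unheated samples. The ranges did not overlap, and in contrast to LINC00324 the highest group was 54 °C. Its log2 fold change was 1.01 ± 0.15 at 46 °C, 1.24 ± 0.15 at 50 °C and 1.85 ± 0.15 at 54 °C, a difference among temperatures that passed the test (adjusted p = 0.002); pooled it was 1.37 ± 0.12 (adjusted p = 1.18e-13). MALAT1 was at 2851, 3722 and 4685 CPM with heating and at 1166, 1739 and 2870 CPM without, and untreated replicate 4 reached the lowest heated sample. The pooled log2 fold change of MALAT1 was 1.07 ± 0.09 (adjusted p = 2.02e-06), with a change of 0.91, 1.07 and 1.24 at the 3 temperatures and no call of a difference among them (adjusted p = 0.507). Of 12 nuclear long noncoding RNAs tested, 3 rose and were shared, NEAT1, MALAT1 and LINC00324, where 1.93% of all tested genes were called higher and 0.189% were shared higher. The list's median log2 fold change was 0.36 against 0.012 over all tested genes; the list was drawn up with earlier results of these data known.

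Another 3 genes with clone-based names were shared. AC073140.1 was at 17.01, 24.8 and 57.3 CPM with heating and 0, 3.88 and 7.78 CPM without, a log2 fold change of 2.99 ± 0.51 (adjusted p = 0.00253). AC067930.8 was at 1.40, 7.03 and 18.4 CPM against 0, 0.156 and 0.715 CPM. AC084082.1 was listed at 0 in all 8 unheated samples and at 0, 3.19 and 17.1 CPM in heated ones, with 2 of the 4 samples at 46 °C and 1 at 50 °C also at 0. AC073140.1 and AC067930.8 had no entry under their identifiers in GENCODE v29, so no position is given. AC067930.8 and AC084082.1 were too low for the naming rule and were named after their values were seen.

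**Figure D2:**
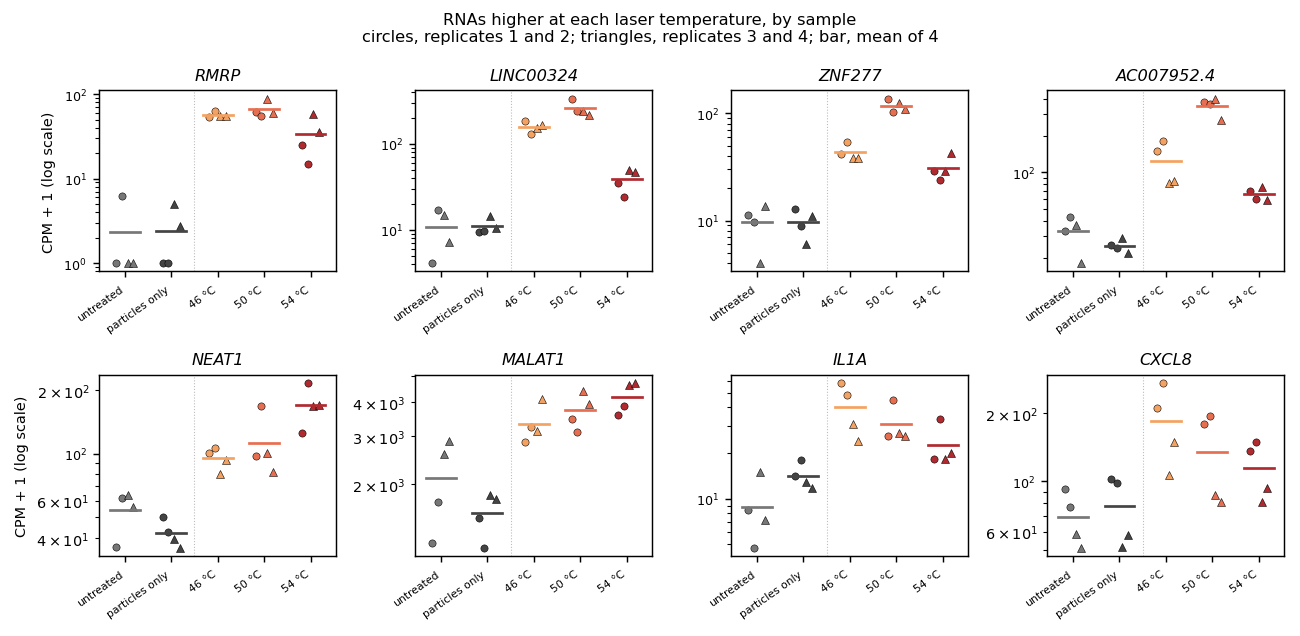
TMM-scaled CPM plus 1 on a log axis for 8 RNAs that were higher at each laser temperature, in each of the 20 samples (circles, replicates 1 and 2; triangles, replicates 3 and 4; bars, means of 4). NEAT1 was highest at 54 °C, LINC00324, ZNF277 and AC007952.4 were highest at 50 °C, and CXCL8 was lower in replicates 3 and 4 than in replicates 1 and 2 of the same group.

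Secreted and cell-surface signals formed the next group. IL1A, the alarmin interleukin 1 alpha, was at 17.2, 25.6 and 56.7 CPM in heated and at 3.74, 11.3 and 17.06 CPM in unheated samples. The ranges were separated by a narrow gap, with 54 °C replicate 3 just above nanoparticles-only replicate 2. Its log2 fold change was 1.497 ± 0.22 (adjusted p = 5.52e-07), but within replicates 3 and 4 alone it was 1.10 with an adjusted p of 0.117. Between nanoparticles-only and untreated cells IL1A had a log2 difference of 0.71 ± 0.35 that was not called (adjusted p = 0.941). Against nanoparticles-only cells alone IL1A kept its pooled call but was not shared. CXCL8 was at 79.7, 142 and 270 CPM with heating and at 49.9, 66.9 and 101.9 CPM without, and the ranges overlapped because replicates 1 and 2 were higher than replicates 3 and 4 in each group. Within a pair they did not overlap: heated replicates 1 and 2 were at 135.7 CPM or more and unheated ones at 101.9 CPM or less, and heated replicates 3 and 4 at 79.7 CPM or more and unheated ones at 57.6 CPM or less. The log2 fold change of CXCL8 was 0.94 ± 0.10 (adjusted p = 2.94e-12), and fell from 1.32 at 46 °C to 0.83 and 0.66 at 50 and 54 °C (adjusted p among temperatures 0.00292).

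Smaller shared increases were seen for F3, tissue factor, which starts blood clotting, with a log2 fold change of 0.40 ± 0.06 (adjusted p = 4.59e-06), and for INHBA, a subunit of activin A, with 0.36 ± 0.07 (adjusted p = 0.000335). INHBA was at 238.9 to 274.5 CPM in the heated and 171.2 to 225 CPM in the unheated samples, with no overlap in spite of the small change. F3 was at 356.9 to 694.3 CPM against 272.1 to 463.9 CPM and overlapped, and it was higher in replicates 3 and 4 than in replicates 1 and 2 (log2 difference 0.54, adjusted p = 1.1e-10). As shared genes these are unstable: of the 20 fits that left out 1 sample, F3 was shared in 7 and INHBA in 8, and of 15 other settings F3 was shared in 5 and INHBA in 9. Of the 26 NF-kB targets and cytokines tested, 6 were higher and 2 lower, beside 1.93% and 2.26% of all tested genes, with a median of 0.32; one of the lower members was IL11, an interleukin 6 family cytokine, at −0.56 ± 0.08 (adjusted p = 1.21e-07).

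The remaining shared increases had various known roles. ANKRD1, a target of the YAP coactivator, was at 421.2, 776.4 and 1454 CPM with heating and at 308.9, 451 and 488.8 CPM without; its log2 fold change stepped down from 1.30 ± 0.09 at 46 °C to 0.88 ± 0.09 at 50 °C and 0.44 ± 0.09 at 54 °C (adjusted p among temperatures 7.09e-09). RND3, which loosens actin stress fibres, had 0.84 ± 0.10 (adjusted p = 3.33e-09). GADD45A, which takes part in growth arrest after stress, had 0.88 ± 0.13 (adjusted p = 1.06e-06). SQSTM1, the autophagy receptor p62, had 0.51 ± 0.07 (adjusted p = 5.61e-08), and EPG5, a tether for the fusion of autophagosomes with lysosomes, 1.01 ± 0.20 (adjusted p = 0.000323).

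Of the metabolic and signalling genes, DGKD, a diacylglycerol kinase, had a log2 fold change of 0.92 ± 0.13 (adjusted p = 9.44e-07), IRS2, an adaptor of the insulin receptor, 0.68 ± 0.09 (adjusted p = 7.38e-08), SLC20A1, a phosphate transporter, 0.62 ± 0.08 (adjusted p = 1.64e-08), CARS, the cysteinyl-tRNA synthetase, 0.58 ± 0.09 (adjusted p = 6.32e-07), and YBX1, an RNA-binding protein with a cold shock domain, 0.35 ± 0.06 (adjusted p = 6.66e-06). YBX1 was at 1782 to 2173 CPM in the heated and 1160 to 1769 CPM in the unheated samples, and the ranges did not overlap. DGKD lay at 67 to 128.4 CPM with heating and at 21.5 to 68.05 CPM without, where nanoparticles-only replicate 4 met the lowest heated sample. With 1 sample left out, GADD45A and SLC20A1 were shared in 8 of 20 fits, EPG5 in 11, and YBX1 and IL1A in 13; under 15 other settings GADD45A was shared in 5. GADD45A, SQSTM1, IRS2, SLC20A1, CARS, F3 and INHBA fell outside the naming rule and are given because they complete the shared genes. In all, 10 genes were higher in every heated than in every unheated sample (0.0823% of tested genes), all of them shared: RMRP, LINC00324, ZNF277, AC007952.4, AC073140.1, AC067930.8, NEAT1, IL1A, INHBA and YBX1.

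Of the 11 shared lower genes 0 held a small structured RNA in an exon, beside 1.007% of annotated tested genes, a share at which 0 of 11 tells little. FOXN3, a forkhead repressor (14:89124871-89619149, minus strand), was at 39.5, 57.6 and 91.6 CPM in heated and at 98.3, 121 and 153.2 CPM in unheated samples, with no overlap. Its log2 fold change was −0.99 ± 0.11 (adjusted p = 1.71e-11), with −0.93, −1.34 and −0.71 at 46, 50 and 54 °C, which did not pass as a difference among temperatures (adjusted p = 0.057). FOXP1, a second forkhead factor, was at 55.6, 102 and 124.6 CPM against 138.2, 159 and 170.9 CPM, again without overlap; its log2 fold change was −0.73 ± 0.09 (adjusted p = 2.27e-09), and the decrease at 50 °C, −1.10, exceeded those at 46 and 54 °C, −0.51 and −0.56 (adjusted p = 0.00836). NR2F2, an orphan nuclear receptor, had −0.66 ± 0.07 (adjusted p = 1.91e-12), and PHF12, a part of the Sin3 corepressor complex, −1.50 ± 0.28 (adjusted p = 9.08e-05) at 2.56 to 17.6 CPM against 14.5 to 33.8 CPM. PHF12 kept its calls at all temperatures in 10 of the 20 fits that left out 1 sample, and ID1, described below, in 11. FOXN3 kept them in 18 of these fits. It was not shared against nanoparticles-only cells alone or within replicates 3 and 4 alone, though its pooled call was kept in all 36 settings.

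**Figure D3:**
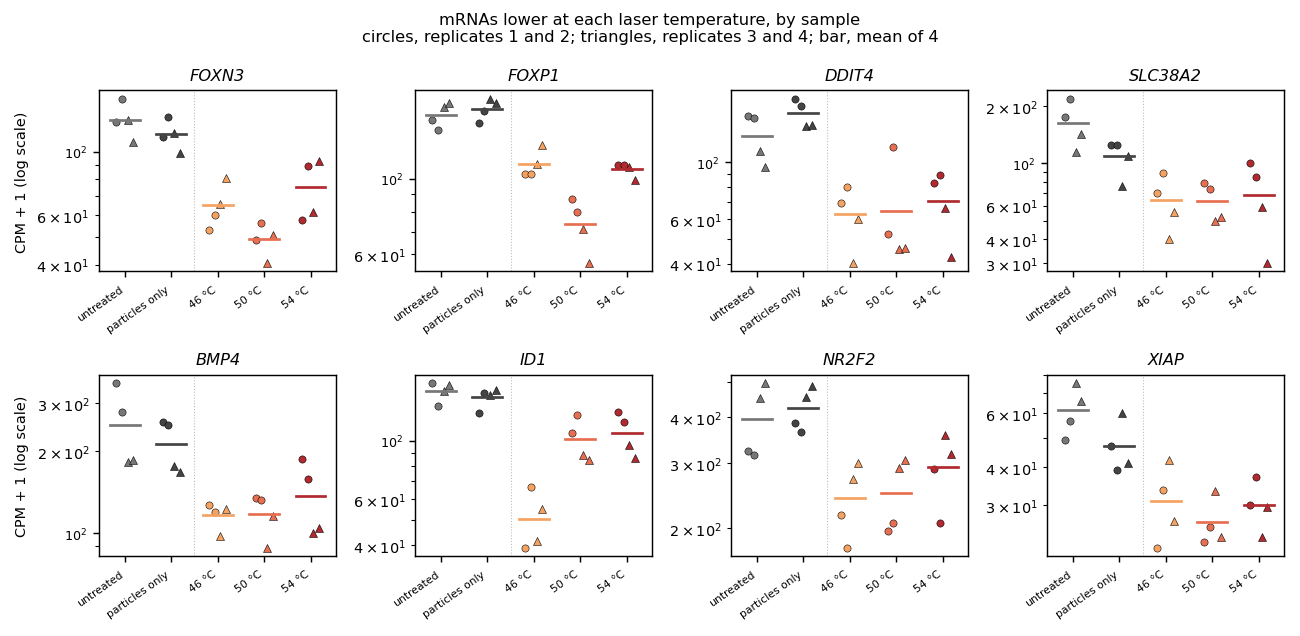
TMM-scaled CPM plus 1 on a log axis for 8 mRNAs that were lower at each laser temperature, in each of the 20 samples (circles, replicates 1 and 2; triangles, replicates 3 and 4; bars, means of 4). FOXN3 and FOXP1 show no overlap between heated and unheated samples, and ID1 lies lowest at 46 °C, between 38.1 and 65.9 CPM.

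The BMP axis gave a ligand and a target. BMP4, a secreted bone morphogenetic protein, was at 87.6, 120 and 186 CPM with heating and at 166.6, 215.6 and 353.4 CPM without, and its log2 fold change was −0.88 ± 0.08 (adjusted p = 5.57e-14) with similar values of −0.94, −0.95 and −0.76 at the 3 temperatures. Of the heated samples only 54 °C replicate 1, at 186 CPM, reached the unheated range. ID1, an inhibitor of differentiation that BMP signals switch on, was at 38.1, 86.3 and 128 CPM against 126.5, 152 and 164.6 CPM, with a log2 fold change of −1.60 ± 0.15 at 46 °C, −0.59 ± 0.14 at 50 °C and −0.50 ± 0.13 at 54 °C (adjusted p among temperatures 2.86e-07; pooled −0.90 ± 0.10, adjusted p = 2.61e-11). Its relative ID3 was lower in the pooled comparison (−0.85 ± 0.13, adjusted p = 2.02e-06) but was called at 46 °C alone, and the receptor BMPR1A had −1.32 ± 0.28 (adjusted p = 0.00112) and was called at 50 °C alone. In the F-test a difference among temperatures was called for ID3 (adjusted p = 8.58e-07) but not for BMPR1A (adjusted p = 0.819). Of 17 BMP and TGF-beta targets tested 0 were higher and 4 lower, beside 1.93% and 2.26% of all tested genes, with a median of −0.105 against 0.012 over all tested genes.

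DDIT4, an inhibitor of the growth kinase mTORC1, was at 39.2, 62.2 and 113.7 CPM in heated and at 94.8, 144 and 177.4 CPM in unheated samples, and only 50 °C replicate 2 reached the unheated range. Its log2 fold change was −1.14 ± 0.11 (adjusted p = 1.27e-13), within a range of −1.20 to −1.04 over the temperatures. SLC38A2, a carrier of neutral amino acids, was at 28.96, 63.7 and 99.5 CPM against 75.4, 124 and 217.9 CPM, with a log2 fold change of −1.07 ± 0.11 (adjusted p = 1.12e-12) and values of −1.09, −1.09 and −1.02 by temperature. The adjusted p for a difference among temperatures was 0.901 for DDIT4 and 0.986 for SLC38A2, which does not show that the changes were equal. Between nanoparticles-only and untreated cells SLC38A2 had a log2 difference of −0.56 ± 0.17 that was not called (adjusted p = 0.826). Both genes were lower in replicates 3 and 4 than in replicates 1 and 2, by −0.59 for DDIT4 (adjusted p = 3e-05) and −0.69 for SLC38A2 (adjusted p = 1.3e-06).

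The other shared decreases were XIAP, an inhibitor of caspases, at −0.90 ± 0.15 (adjusted p = 1.19e-05), RNF145, a ubiquitin ligase of the endoplasmic reticulum, at −0.58 ± 0.10 (adjusted p = 1.14e-05), and SSR3, a subunit of the translocon-associated complex, at −0.45 ± 0.07 (adjusted p = 2.28e-06). XIAP was at 20.8, 27.1 and 41.1 CPM with heating and at 38.05, 51.95 and 74.3 CPM without, with overlap at nanoparticles-only replicates 2 and 4. With 1 sample left out XIAP was shared in 13 of 20 fits. RNF145 was at 62.9, 90.5 and 99.7 CPM against 99.99, 123 and 158.1 CPM, which places every heated sample below every unheated one by a very small margin. In all, 5 genes were lower in every heated sample (0.0412% of tested genes): the shared FOXN3, FOXP1 and RNF145, and LRRC58 and ANP32A, which were not shared. ANP32A, a phosphatase inhibitor family member, was named after its values were seen. LRRC58 was at −0.42 ± 0.13 at 46 °C (adjusted p = 0.0651), −1.40 ± 0.14 at 50 °C and −0.76 ± 0.13 at 54 °C.

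Most pooled calls were not shared. Of the 510 called genes (4.2%), 94 also differed among the 3 laser temperatures, as did 7 of the 23 shared higher and 2 of the 11 shared lower genes; over all tested genes 352 differed (2.9%), and 258 of those were not pooled calls. Several of the largest pooled increases came from one temperature. HSPA1A, an inducible HSP70 chaperone, was at 1538, 1711, 1558 and 2234 CPM in the 4 samples at 46 °C, at 16.04, 13.9, 33.7 and 20.2 CPM at 50 °C, at 25.2, 17.6, 29.8 and 21.1 CPM at 54 °C, and between 17.1 and 38.2 CPM in unheated cells. So the pooled log2 fold change of 1.82 ± 0.18 (adjusted p = 1.71e-05) joins 6.04 at 46 °C with −0.37 and −0.20 at the other temperatures, where it was not called. HSPA1B, a near-identical copy with which reads may be split, had 4.70, −0.29 and −0.34.

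The same held for other heat-induced genes. DNAJB1, a co-chaperone of HSP70, was at 1391, 1845, 1304 and 2042 CPM at 46 °C and at 156.6 CPM or less in every other sample, and its log2 fold changes were 3.59, −0.09 and −0.23. HSPA6, a strictly inducible HSP70, was at 871.4, 1178, 818.1 and 1701 CPM at 46 °C, at no more than 4.28 CPM at 50 °C, at 0 in all 4 samples at 54 °C and at no more than 2.41 CPM in unheated cells; with 0 in a whole group its pooled log2 fold change of 1.75 had an SE of 22.02 and was not called (adjusted p = 0.983). HSPH1, an HSP110 chaperone, had 1.88 ± 0.10 at 46 °C and 0.04 and 0.07 at 50 and 54 °C. Of 36 cytosolic heat shock chaperones tested, 9 were higher and 0 lower in the pooled comparison, against 1.93% of all genes called higher, but 0 were shared. At 46 °C 15 were higher, at 50 °C 1 and at 54 °C 0, beside 1.61%, 2.4% and 0.469% of all tested genes. Among temperatures 13 differed, beside 2.9% of all tested genes.

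EGR1, an immediate-early zinc finger factor, was at 846.4, 994.4, 859.2 and 1215 CPM at 46 °C, and at most 27.7 CPM in all other samples. Its log2 fold changes were 6.39 ± 0.30, 0.69 ± 0.35 and 0.63 ± 0.33, and only the first was called. FOS had 5.82 ± 0.69 at 46 °C and was not called when pooled (1.47 ± 0.68, adjusted p = 0.31), while JUN had 2.06, 0.27 and 0.32 and a pooled 0.88 ± 0.10 (adjusted p = 5.39e-07). IER5, which modulates HSF1, had 2.38, −0.20 and 0.01, and GADD45B 2.51, 0.32 and −0.14. PPP1R15A, which restarts translation after stress, was called at 46 and 50 °C, with 1.22 ± 0.11 and 0.47 ± 0.11, and had 0.34 ± 0.11 at 54 °C (adjusted p = 0.184). Of 36 immediate-early genes tested 11 were higher and 2 lower when pooled, beside 1.93% and 2.26% of all tested genes, and 1 was shared, GADD45A. At 46 °C 17 were higher and 1 lower, at 50 °C 3 were higher and 3 lower, and at 54 °C 2 were higher and 0 lower. All tested genes had 1.61% higher and 1.09% lower at 46 °C, 2.4% and 2.62% at 50 °C and 0.469% and 0.255% at 54 °C. The growth-arrest gene CDKN1A had 0.56 ± 0.11 (adjusted p = 0.000331), while the p53 targets MDM2 and ZMAT3 were lower at −0.66 ± 0.16 and −0.97 ± 0.19. Of 14 p53 targets 3 were higher and 2 lower when pooled, beside 1.93% and 2.26% of all tested genes.

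Other pooled increases were highest at 50 °C. CSKMT, whose exon holds the small nucleolar RNA SNORA57, was at 180.9, 156.9, 201.9 and 163.6 CPM at 50 °C, at 20.7, 21.2, 48.1 and 47.6 CPM at 54 °C, and at 25.2 CPM or less at 46 °C and in unheated cells. It was called at 50 °C and, with a log2 fold change of 0.89 ± 0.20, at 54 °C (adjusted p = 0.00845), and its pooled call was lost without the 50 °C group. SNHG12, a host of small nucleolar RNAs, was at 259.3, 387, 399.9 and 351.9 CPM at 50 °C and between 19.2 and 55.8 CPM at 46 °C. TAF1D had 0.23, 1.33 and 0.68 at the 3 temperatures, was called at 50 °C and at 54 °C (adjusted p = 6.85e-08), and kept its pooled call without the 50 °C group. EIF4A2 had 0.33, 1.52 and 0.04, and both carry small nucleolar RNAs in their gene models. Of 22 snoRNA host transcripts tested 4 were higher and 1 lower when pooled, beside 1.93% and 2.26% of all tested genes, and 0 were shared. At 46 °C 0 were higher and 1 lower, at 50 °C 8 were higher (2.4% of all genes) and at 54 °C 2 (0.469%). Among 17 replication-dependent histone genes, whose usual mRNAs lack a poly(A) tail, 3 were higher when pooled and 9 at 50 °C, for instance HIST1H1E at 1.45 ± 0.22. All tested genes had 1.93% higher when pooled and 2.4% at 50 °C. MTRNR2L1 and MTRNR2L12, nuclear copies of the mitochondrial 16S rRNA gene that share its sequence, had 2.29 and 1.80 at 50 °C and −0.68 and 0.11 at 46 °C; reads of the copies and of the mitochondrial gene cannot be assigned with certainty.

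Of the other large pooled increases, AC010624.5 was at 556.1, 741.7, 845.5 and 712.4 CPM at 46 °C, at 117, 32.3, 57.4 and 53.6 CPM at 50 °C, at 6.83 to 18.97 CPM at 54 °C and at 10.07 CPM or less without heat. EIF3C, a translation initiation factor subunit with the near-identical copy EIF3CL, had 2.53, 2.67 and 1.97 at the 3 temperatures and missed the shared set at 54 °C (adjusted p = 0.0596); its value is uncertain, because counting can split reads between the copies. The unheated groups differed in range, with untreated samples at 5.29 to 30.97 CPM and nanoparticles-only ones at 0 to 7.94 CPM.

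Decreases also had temperature-bound members. BCL6, a transcriptional repressor, was at 10.5, 9.39, 9.65 and 15.8 CPM at 54 °C, at 58.4, 60.3, 73.0 and 82.2 CPM at 50 °C, at 86.7 to 105.4 CPM at 46 °C and at 58.9 to 128.6 CPM in unheated cells, and its log2 fold changes were 0.09, −0.41 and −3.01. AC007381.2 followed the same order, with 0.03, −0.49 and −4.07. The other large pooled decreases were called at no more than 1 temperature, which does not by itself show a difference among temperatures. CLK4, a kinase of splicing factors, had −1.13 ± 0.26 (adjusted p = 0.00292) and was called at 46 °C. IER5L had −1.12 ± 0.21 (adjusted p = 0.000154) and SIX4, a homeobox factor, −1.11 ± 0.29 (adjusted p = 0.0109), both called at 50 °C, and AC125257.1 had −1.14 ± 0.27 (adjusted p = 0.00523) and was called at none. The call of AC125257.1 was lost without untreated replicate 4 (adjusted p = 0.0604). By temperature CLK4 had −1.55, −0.87 and −0.97, and SIX4 −0.90, −1.58 and −0.855. No difference among temperatures was called for either (F-test, adjusted p = 0.708 and 0.698). Among 42 splicing regulators 7 were lower and 2 higher, beside 2.26% and 1.93% of all tested genes. The lower ones include RBM25 at −0.48 ± 0.07 (adjusted p = 3.76e-08) and HNRNPDL at −0.41 ± 0.06 (adjusted p = 4.23e-07), both called at 46 and 50 °C and neither at 54 °C.

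**Figure D4:**
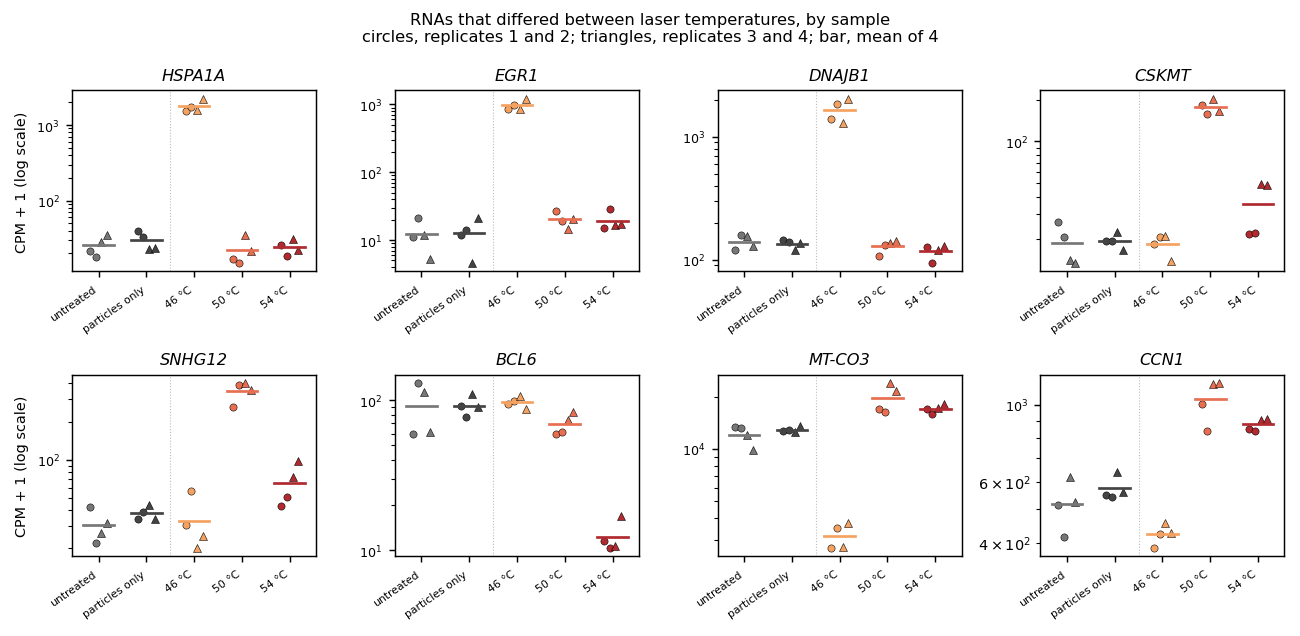
TMM-scaled CPM plus 1 on a log axis for 8 RNAs whose level differed among the laser temperatures, in each of the 20 samples (circles, replicates 1 and 2; triangles, replicates 3 and 4; bars, means of 4). HSPA1A, EGR1 and DNAJB1 stand out at 46 °C, CSKMT and SNHG12 at 50 °C and BCL6 at 54 °C, while MT-CO3 and CCN1 lie below the unheated mean at 46 °C and above it at 50 °C.

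In 9 genes the direction turned between temperatures, being called higher at one and lower at another, and the 6 with the widest spread were mitochondrially encoded. MT-CO3, a subunit of cytochrome c oxidase, was at 2701, 3492, 2710 and 3741 CPM at 46 °C, at 16890, 16380, 23860 and 21550 CPM at 50 °C, at 17010, 15950, 17300 and 18070 CPM at 54 °C and between 9879 and 13570 CPM in unheated cells. Its log2 fold changes were −1.99 ± 0.13 (adjusted p = 7.61e-08), 0.65 ± 0.11 (adjusted p = 0.00291) and 0.45 ± 0.11 (adjusted p = 0.121), and pooled it was not called (−0.30 ± 0.09, adjusted p = 0.0709). MT-CO2 had −1.63, 0.60 and 0.27, MT-ATP8 −1.78, 1.01 and 0.92, MT-ATP6 −1.51, 0.66 and 0.31, MT-ND1 −1.15, 0.92 and 0.25, and MT-ND2 −1.12, 0.79 and 0.35. All 13 mitochondrially encoded mRNAs differed among temperatures, with list medians of −1.15, 0.66 and 0.27 at 46, 50 and 54 °C, so the pooled median of 0.004 hides shifts in both directions. Only MT-ND3 (−0.64 ± 0.10, adjusted p = 0.00122) and MT-ND6 (−1.06 ± 0.25, adjusted p = 0.027) were called when pooled. MT-ND6 lies on the other strand from the rest of the set, and its response to heating differed between the replicate pairs (adjusted p = 0.00519). With 1 sample left out MT-ND6 kept its call in 12 of 20 fits and MT-ND3 in 20. Both calls were lost without the 46 °C group, and that of MT-ND6 also without the 54 °C group. CCN1, a matrix protein gene under YAP control, was at 385.4 to 456 CPM at 46 °C, 841.2 to 1153 CPM at 50 °C, 838.5 to 912.1 CPM at 54 °C and 413.7 to 639.9 CPM without heat. Of 26 YAP and SRF targets 7 were higher and 0 lower when pooled, beside 1.93% and 2.26% of all tested genes, and 10 differed among temperatures. At 46 °C 4 were higher and 2 lower, at 50 °C 8 and 1, and at 54 °C 3 and 0. All tested genes had 1.61% higher and 1.09% lower at 46 °C, 2.4% and 2.62% at 50 °C and 0.469% and 0.255% at 54 °C. Among temperatures 2.9% of all tested genes differed. ANKRD1 was shared, and AMOTL2 had 0.58 ± 0.10 (adjusted p = 3.93e-05) and was not called at 46 °C. AMOTL2 also had a log2 difference of 0.54 ± 0.16 between nanoparticles-only and untreated cells, which was not called (adjusted p = 0.826). Its pooled call was lost against nanoparticles-only cells alone and within replicates 3 and 4 alone.

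The title of the series speaks of c-MYC as a target. MYC was at 11.5, 32.1 and 47.2 CPM with heating and 10.7, 20.7 and 29.03 CPM without, and its log2 fold change of 0.47 ± 0.20 was not called (adjusted p = 0.212). Its partner MAX had −0.12 ± 0.10 (adjusted p = 0.622). Of 10 members of the MYC and MAX network 1 was higher, beside 1.93% of all tested genes. This was the repressor MNT, at 1.05 ± 0.29 (adjusted p = 0.0234). That call was lost in 8 of 36 settings, with an adjusted p of up to 0.476. It was lost without 54 °C replicate 1 (adjusted p = 0.0769), without nanoparticles-only replicate 1 (0.0606) and in limma-voom (0.0555). It was also lost against untreated cells alone, without the 50 °C group, without the 54 °C group and within each replicate pair. Mean MNT was 8.19 CPM in untreated and 4.70 CPM in nanoparticles-only cells, a difference that was not called (adjusted p = 0.982). Of 30 ribosome biogenesis genes 0 were called when pooled, beside 4.2% of all tested genes called either way. At 46 °C 1 of them was lower and at 50 °C 2 were, beside 1.09% and 2.62% of all tested genes. CD274, the gene of the checkpoint ligand PD-L1, had −0.11 ± 0.21 (adjusted p = 0.877), and CD47, a signal against phagocytosis, −0.02 ± 0.13 (adjusted p = 0.958). Of 14 checkpoint ligands and of 17 class I antigen presentation genes 0 were called when pooled, beside the same 4.2%. At 50 °C 1 checkpoint ligand and 2 class I genes were higher, beside 2.4% of all tested genes. Among temperatures 1 class I gene differed, beside 2.9% of all tested genes. Over all temperatures the ranges of heated and unheated samples overlapped for MYC, MAX, CD274 and CD47. At 54 °C, however, MYC was at 29.42 to 38.1 CPM, above every unheated sample. Its log2 fold change there was 0.76 ± 0.26 and was not called (adjusted p = 0.207). At 46 °C MYC was at 11.5 and 14.6 CPM in replicates 1 and 2 and at 34.9 and 47.2 CPM in replicates 3 and 4. At 50 °C it ran from 16.8 to 37.3 CPM. Other lists with 0 members called when pooled were the 15 BCL2 family genes, 68 nuclear-encoded oxidative phosphorylation subunits, 19 cholesterol synthesis genes, 17 mitochondrial chaperones and 7 metallothioneins. With 4.2% of all tested genes called, few or no calls would fall in lists of these sizes. Of the oxidative phosphorylation subunits, however, 13 differed among temperatures, beside 2.9% of all tested genes, and 5 were higher at 46 °C. Of the mitochondrial chaperones 3 differed, with 2 higher at 46 °C and 1 at 50 °C. Of the BCL2 family genes 1 differed, and 1 was lower at 50 °C. Of all tested genes 1.61% were higher at 46 °C, and 2.4% were higher and 2.62% lower at 50 °C.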

How the data were processed

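RNA of 20 samples of MDA-MB-231 cells was sequenced from the 3′ end with a QuantSeq FWD kit, per the labels' protocols. The authors deposited 1 table of estimated counts for 36601 genes; the submitters' processing notes name STAR, Salmon and GRCh38. Versions, annotation, molecular identifiers and strand setting: not given in the sources used here. Counts were rounded and tested with edgeR 4.0.16 in R 4.3.3 (quasi-likelihood, robust), with 5 group means, a term for replicates 3 and 4 against 1 and 2, and TMM scaling. The filterByExpr function, at a minimum count of 10 and a minimum total of 15, kept 12149 genes. Means of groups were compared with equal weights, and p-values were adjusted over all tested genes by Benjamini-Hochberg. CPM values are TMM-scaled, and the SE of a log2 fold change is its size over the square root of its F statistic. The fit was tested on simulated data that held no difference between replicate pairs, unlike the real data. At a log2 change of 0.5 in all heated groups, 21 of 67 genes were called in the right direction. At a change of 1 it was 41 of 67, and at a change of 2 it was 57 of 66. Of the unchanged genes, which made up most of the 12149 simulated, 11 were called. Where a log2 change of 2 was set at 46 °C alone, 27 of 50 genes had a pooled call and 0 were called at each temperature.

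The comparison, the gene lists and the names were chosen with earlier results of these data known, and the replicate pairs were found from the data. Genes named are up to 12 shared genes in each direction with the largest smallest change over the temperatures and a mean CPM of at least 10 (all 11 lower ones), the 6 largest pooled changes that were not shared in each direction, 6 of opposed direction, fixed stress, MYC and checkpoint genes, and up to 3 called members of each of 43 lists. Replicates of a group correlated at 0.891 to 0.942 across genes and differed by a chi-square of at least 7.547 per gene, so none was counted as a duplicate. Samples of different groups with the same replicate number correlated at 0.022 to 0.066 (median 0.041) in their deviations from group means. The median was 0.039 for the other number of the same pair and −0.041 for the other pair. The same number thus stood little above the other number of its pair, and the numbers were not taken as pairs. Depth bounds counting error only, as copies made by PCR are not independent molecules. Positions and exons are from GENCODE v29, where 12113 of the 12149 tested identifiers were found. Alternatives used DESeq2 1.42.0 and limma 3.58.1, other scalings, filters, unheated groups and sample subsets.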

Additional observations from a re-analysis of the deposited data

Results flagged for a closer look

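The gap between 1 sample and the rest of its group of 4 was measured for every gene named, as the distance to the nearest sample over the group's range, and set against Dixon's 95% bound for 4 samples. That bound is passed by about 1 in 20 groups by chance, and 23 of 485 groups passed it (4.742%). Among RNAs that were higher at each temperature, RMRP was outlying in untreated replicate 2, the only untreated sample above 0, with a gap of 1 of the range. IL1A was high in 50 °C replicate 2 (0.917) and in 54 °C replicate 2 (0.831). DGKD was low in untreated replicate 1 (0.882) and in 54 °C replicate 3 (0.859). GADD45A was high in untreated replicate 4 (0.929) and ANKRD1 low in untreated replicate 3 (0.841). Among the shared decreases, FOXP1 was low in 54 °C replicate 4 (0.894), RNF145 low in 50 °C replicate 4 (0.893), DDIT4 high in 50 °C replicate 2 (0.855) and SSR3 low in nanoparticles-only replicate 1 (0.884). Of genes that were not shared, MNT was low in 46 °C replicate 3 (0.895) and in 50 °C replicate 2 (0.949), and CD274 low in nanoparticles-only replicate 1 (0.923). HIST1H1E was low (0.914) and FOS high (0.83) in 46 °C replicate 4. MT-ND2 was low in nanoparticles-only replicate 4 (0.852) and in 46 °C replicate 1 (0.907), and MT-ND1 low in 50 °C replicate 2 (0.845). TFRC was low in 54 °C replicate 4 (0.908), AURKA low in 46 °C replicate 4 (0.897), IRF1 high in 50 °C replicate 1 (0.865) and PCNA high in untreated replicate 2 (0.875).

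The effect of heating differed among the 3 temperatures for 46 of the 97 genes named, by the F-test of the same edgeR fit, and the adjusted p of each stands in brackets. Shared increases that differed in size were NEAT1 (0.002), LINC00324 (0.000183), ZNF277 (7.67e-10), AC007952.4 (1.23e-11), ANKRD1 (7.09e-09), CXCL8 (0.00292) and SLC20A1 (0.00233). Shared decreases that differed in size were ID1 (2.86e-07) and FOXP1 (0.00836). Chaperones and their regulators were HSPA1A (1.64e-10), HSPA1B (5.87e-38), HSPA6 (1.66e-07), DNAJB1 (7.8e-38), HSPH1 (1.26e-20) and IER5 (2.63e-38), and immediate-early or stress genes were EGR1 (2.29e-08), FOS (0.000141), JUN (8.08e-11), GADD45B (1.83e-23) and PPP1R15A (1.66e-07). Genes of snoRNA hosts, translation and histones were SNHG12 (9.79e-06), CSKMT (2.86e-20), TAF1D (2.75e-13), EIF4A2 (1.06e-19) and HIST1H1E (0.000297). Mitochondrially encoded RNAs and their nuclear copies were MT-ND6 (0.0277), MT-CO2 (1.76e-08), MT-ND2 (8.26e-07), MT-ND3 (8.11e-06), MT-ND1 (2.84e-05), MT-ATP6 (2.67e-06), MT-CO3 (3.08e-08), MT-ATP8 (6.94e-08), MTRNR2L1 (2.85e-07) and MTRNR2L12 (9.7e-07). The others were NDRG1 (0.0464), CDC20 (1.45e-05), RPL12 (0.01), BCL6 (2.86e-20), ID3 (8.58e-07), RBM25 (0.0116), CCN1 (4.99e-20), HNRNPDL (0.00854), LRRC58 (1.5e-05), AC010624.5 (4.62e-06) and AC007381.2 (8.24e-07). The effect of heating differed between replicates 1 and 2 and replicates 3 and 4 for MT-ND6 (0.00519) and NAMPT (0.00519, the adjusted p of the interaction).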

How the results depend on the processing

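With no replicate block, 113 genes were higher and 137 lower, 11 and 2 were shared and 134 differed among temperatures; a block of all 4 replicate numbers gave 230 higher and 271 lower. Replicate numbers mark no shared unit in the labels, and 9 of the 20 samples correlated best with their own number but 20 with their own pair. Replicates 1 and 2 alone gave 13 shared higher and 7 shared lower genes, and 4 genes higher with nanoparticles only than in untreated cells. Replicates 3 and 4 alone gave 62 higher and 44 lower, 10 and 3 shared, 81 differing among temperatures, and 1 higher and 1 lower with nanoparticles. Against nanoparticles-only cells alone 108 were higher and 103 lower, with 13 and 5 shared; against untreated cells alone 115 and 116. A fit of 2 groups, which cannot test temperatures, gave 136 and 149. Without the 46 °C group 37 and 20 genes were called at both other temperatures, 67 differed between them and 1 was higher with nanoparticles. That setting turned the log2 fold change of DNAJB1 to −0.164, IER5 to −0.095, HSPA1A to −0.292, HSPA1B to −0.326, MT-CO2 to 0.43 and MT-CO3 to 0.545. Without the 50 °C group 107 were higher and 77 lower, 128 differed between temperatures, the pair term called 334 higher and 373 lower, and MT-ND2 turned to −0.384, MT-ATP8 to −0.428 and MTRNR2L1 to −0.287. Without the 54 °C group 55 and 40 were called at both other temperatures. Scaling by library totals gave 699 genes differing among temperatures and DESeq2 544, and 1 gene was higher with nanoparticles without the filter on low counts. Leaving out each sample in turn gave 171 to 237 higher, 194 to 273 lower, 15 to 27 shared higher, 6 to 11 shared lower, 243 to 410 differing among temperatures, 0 to 1 higher and 0 to 1 lower with nanoparticles, and 429 to 488 higher and 487 to 565 lower for the pair term. Of the 34 shared genes 15 were kept without each of the 20 samples, and ZNF277, NEAT1, MALAT1 and AC007952.4 under all 15 other settings. The cause of these changes was not tested, apart from settings with fewer samples. Nanoparticles-only against untreated cells had 637 genes at an unadjusted p under 0.05 in edgeR, 740 in DESeq2 and 652 in limma-voom. By chance a share of 0.05 of the 12149 tested genes would pass that bound.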

Other observations

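Other lists of genes are given here by their calls when the heated groups were pooled. Over all tested genes 1.93% were called higher and 2.26% lower. By temperature these shares were 1.61% and 1.09% at 46 °C, 2.4% and 2.62% at 50 °C and 0.469% and 0.255% at 54 °C. Of 81 ribosomal protein genes 4 were higher and 0 lower, against 12 higher at 50 °C, 2 higher and 2 lower at 46 °C and 1 higher at 54 °C. RPL12, of the large subunit, had the smallest p of them, with a log2 fold change of 0.22 ± 0.05 (SE; adjusted p = 0.00401 in edgeR, as for the values that follow). Of 34 factors of mRNA decay and silencing 2 were higher and 4 lower, and 6 were lower at 50 °C. TNRC6C, a partner of Argonaute proteins in silencing by microRNAs, had −0.98 ± 0.20 (adjusted p = 0.000694), and PABPC4, a poly(A)-binding protein, 0.31 ± 0.07 (adjusted p = 0.00185). Of 36 translation initiation factors 3 were higher and 1 lower. Of 30 G2/M genes 3 were lower and of 30 DNA replication genes 1, with 0 higher in either list. The mitotic kinase AURKA had −0.30 ± 0.07 (adjusted p = 0.00576), and CDC20, an activator of the anaphase-promoting complex, −0.61 at 46 °C, −0.67 at 50 °C and 0.18 at 54 °C. UBE2C, the ubiquitin-conjugating enzyme of that complex, had −0.23 ± 0.07 (adjusted p = 0.0429) and PCNA, the sliding clamp of replication, −0.32 ± 0.10 (adjusted p = 0.0429); with 1 sample left out, UBE2C kept its call in 9 of 20 fits and PCNA in 8. Of 36 proteasome subunits 2 were lower and 0 higher. Of 20 chaperones of the endoplasmic reticulum 1 was lower, and of 21 genes of the integrated stress response 1 was higher and 1 lower. Of 22 NRF2 targets and iron handling genes 2 were higher and 1 lower, of 29 genes of glycolysis and hypoxia 2 and 2, and of 20 interferon-stimulated genes 1 and 0. The transferrin receptor TFRC had −0.34 ± 0.07 (adjusted p = 0.00109), the hypoxia gene NDRG1 0.53 ± 0.08 (adjusted p = 6.8e-07) and the interferon regulatory factor IRF1 0.50 ± 0.14 (adjusted p = 0.0211). None of these lists held a gene called at each of the 3 temperatures except the integrated stress response list, whose 1 shared decrease, DDIT4, is described above.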
